A study of Homo sapiens with 6 samples.

Results

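Expression of 10 inflammatory mediators that NF-kB is known to control was followed in A673 and SK-N-MC, 2 established human Ewing tumor cell lines. The 10 genes are TNFAIP6, TNFAIP3, NFKBIA, IL6, CXCL8, CXCL1, CXCL2, CCL2, LIF and PTGS2, out of 18417 genes measured. Each was read by the probe set that the platform annotation gives to that symbol alone, and each gene had 1 such probe set. The choice of genes used the measured difference between the lines, above all that of TNFAIP6, so the values of the 10 genes by line are a description without a test. RNA came from A673 cells given siRNA 2 or siRNA 3 against STEAP1, from A673 cells given a control siRNA, from SK-N-MC cells given siRNA 2 or siRNA 3, and from SK-N-MC cells given a control siRNA. Each of these 6 conditions was 1 Affymetrix gene expression array. All cells, controls included, received 5 nM siRNA for 48 h and no added inflammatory stimulus is named in the labels. No label states that arrays of 1 line were separate cultures. The p-values thus reflect array-to-array spread alone, part of which may be technical. For responses within a line, this is the spread between siRNA 2 and siRNA 3 arrays, so it includes any difference between those siRNAs. That spread is pooled over both lines, so the standard error in 1 line also reflects the siRNA arrays of the other. Precision is limited by having 3 arrays a line, of which 1 is the control. The RNA is from bulk cultures, in which fewer expressing cells and less RNA per cell cannot be told apart.

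NF-kB is a family of dimeric transcription factors held in the cytoplasm by IkB proteins. Signals from tumor necrosis factor, interleukin-1 or Toll-like receptors activate the IKK kinases, IkB is degraded, and the dimers enter the nucleus. Among the genes they switch on are cytokines and chemokines that recruit leukocytes, and also the inhibitors NFKBIA and TNFAIP3, which close the loop.

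STEAP1, the silenced gene, lay at a log2 intensity of 4.53 with siRNA 2 and 4.59 with siRNA 3 in A673, against 6.23 in the A673 control array. In SK-N-MC it lay at 4.17 and 4.73, against 7.15 in the control array. The STEAP1 response was -1.67 (SE 0.24, limma adjusted p = 0.9995) in A673. In SK-N-MC it was -2.70 (SE 0.24, limma adjusted p = 0.0681). Neither passed the threshold, although STEAP1 was the silenced gene. A response below the threshold is therefore no evidence that a gene did not respond. The Ewing tumor markers CD99, NKX2-2, PRKCB, PPP1R1A and LIPI lay between 5.57 and 10.3 in the 6 arrays. Of 19 markers of leukocytes, endothelium and fibroblasts, 2 had a mean log2 of at least 4, COL1A1 and THY1. The defining leukocyte marker PTPRC lay between 1.01 and 1.23, and the defining endothelial marker VWF between 1.32 and 1.43. Interferon-stimulated genes set the SK-N-MC arrays apart: the summed intensity of 19 such genes was 461 with siRNA 2 and 1779 with siRNA 3, against 3455 in the SK-N-MC control array. In A673 the sum was 145 and 147, against 158 in the control array.

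Promoter sequences are shown first, because the genes were grouped by their link to NF-kB and because CXCL1 and CXCL2 are close copies. They are the 130 bases before the start of each gene, 5′ to 3′, from RefSeq on GRCh38.p14. The promoters of 8 of the 10 genes were used here. Capitals mark matches to the NF-kB consensus on either strand, and in TNFAIP6 the letters TGANTCA of an AP-1 site. Overlapping matches run together. The stretches are chr2:151357462-151357591, plus strand, for TNFAIP6; chr6:137867129-137867258, plus strand, for TNFAIP3; chr14:35404750-35404879, minus strand, for NFKBIA; chr4:73869263-73869392, plus strand, for CXCL1; and chr4:74099196-74099325, minus strand, for CXCL2.
TNFAIP6: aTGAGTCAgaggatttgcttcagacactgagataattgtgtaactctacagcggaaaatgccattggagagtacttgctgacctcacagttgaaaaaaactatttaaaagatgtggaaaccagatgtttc
TNFAIP3: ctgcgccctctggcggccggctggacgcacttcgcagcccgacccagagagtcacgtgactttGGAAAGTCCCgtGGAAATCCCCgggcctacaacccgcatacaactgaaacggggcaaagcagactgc
NFKBIA: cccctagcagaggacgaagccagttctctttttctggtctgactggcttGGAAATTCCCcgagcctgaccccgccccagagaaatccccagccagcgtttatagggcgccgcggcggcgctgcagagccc
CXCL1: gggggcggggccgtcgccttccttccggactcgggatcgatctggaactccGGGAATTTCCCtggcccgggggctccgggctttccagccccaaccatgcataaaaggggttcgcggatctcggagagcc
CXCL2: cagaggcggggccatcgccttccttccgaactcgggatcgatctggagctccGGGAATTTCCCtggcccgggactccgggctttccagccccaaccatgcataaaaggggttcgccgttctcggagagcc

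In the 250 bases before the start, the NF-kB consensus was found in 5 of the 8 promoters, namely TNFAIP3, NFKBIA, IL6, CXCL1 and CXCL2. Among the 35116 promoters of the table used, 5.21% held it. The shorter letters GGAATTTCC, which overlap the consensus in NFKBIA, CXCL1 and CXCL2, were also present in CXCL8, against 0.413% of all promoters. The letters TGANTCA stood in TNFAIP6 and CXCL8, against 6.57% of all promoters. The stretches of CXCL1 and CXCL2 shown above were identical at 121 aligned positions (92.4%), while CXCL1 and CXCL8 shared 45.8%. A match is a description of the letters and not of binding in these cells.

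TNFAIP6 encodes TSG-6, a secreted hyaluronan-binding protein that is induced in inflammation and stabilises hyaluronan matrix. It lay at a log2 intensity of 7.24 with siRNA 2, 7.41 with siRNA 3 and 7.27 in the control array of A673. In SK-N-MC it lay at 1.99 with siRNA 2, 1.71 with siRNA 3 and 1.74 in the control array. All A673 arrays were high and all SK-N-MC arrays low, without overlap. The response to STEAP1 siRNA was 0.05 (SE 0.19) in A673 and 0.11 (SE 0.19) in SK-N-MC, and neither passed the threshold. The mean was 7.31 ± 0.09 in A673 and 1.81 ± 0.15 in SK-N-MC (SD, n = 3 each), a difference of 5.50 on the log2 scale or 45.2-fold. The SK-N-MC values are dim and no detection calls were used, so the fold depends on how dim values are treated, and with values below a log2 of 3 set to 3 the difference was 4.31. The difference of 5.50 belongs to the values that chose the genes.

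As a yardstick for dim values, 341 olfactory receptor genes, which are normally silent outside the nose, had a 95th percentile between 1.96 and 2.17 in the 6 arrays. Probe sets differ in affinity, so this gives only a rough idea of where measured signal starts, and it was chosen after the values were seen. IL6, CXCL8, CXCL2, CCL2 and LIF never exceeded that percentile in any array, and lay between 0.99 and 1.70. NFKBIA exceeded it in 6 arrays, TNFAIP3 in 5, TNFAIP6 in the 3 A673 arrays, CXCL1 in 3 and PTGS2 in 2.

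**Figure D1:**
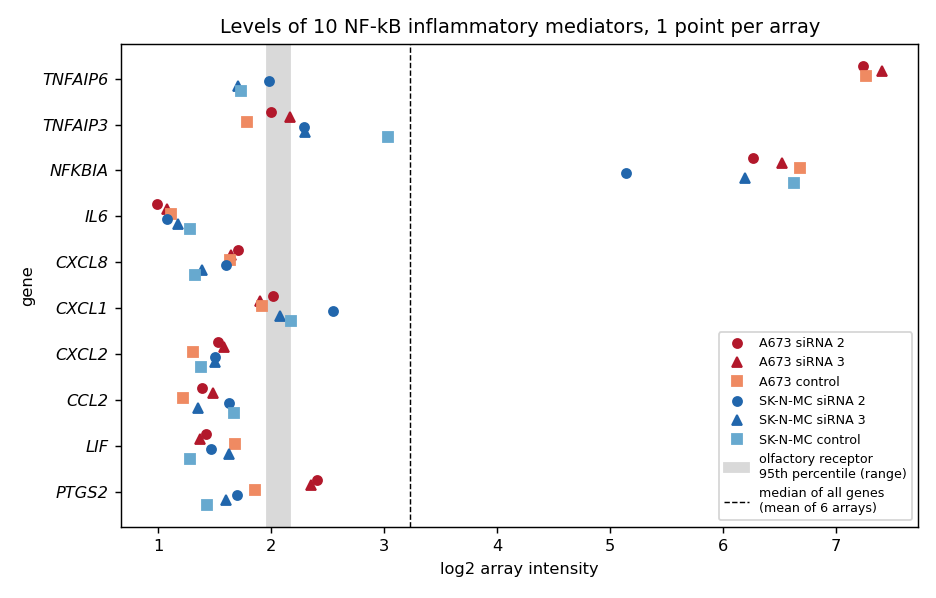
Log2 array intensity (x axis) of the 10 genes (y axis) in each of the 6 arrays, with A673 in reds and SK-N-MC in blues, circles for siRNA 2, triangles for siRNA 3 and squares for control. TNFAIP6 lies between 7.24 and 7.41 in A673 and between 1.71 and 1.99 in SK-N-MC, NFKBIA is above the median of all genes (dashed) in every array, and 5 genes stay left of the olfactory receptor 95th percentile (grey band, 1.96 to 2.17).

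NFKBIA encodes IkB-alpha, the inhibitor that holds NF-kB in the cytoplasm and is itself an NF-kB target. In A673 it lay at 6.26 with siRNA 2 and 6.52 with siRNA 3, against 6.69 in the control array. In SK-N-MC it lay at 5.14 with siRNA 2 and 6.19 with siRNA 3, against 6.63 in the control array. The SK-N-MC siRNA 2 array stood lowest, and every siRNA array lay below its control array. On the linear scale these SK-N-MC values were 35.3 and 73.2 intensity units, against 99.1 in the control array. The response was -0.96 (SE 0.39) in SK-N-MC, with an unadjusted p of 0.0448 and a limma adjusted p of 0.958, and -0.29 (SE 0.39) in A673, with a limma adjusted p of 1.00. Across both lines it was -0.63 (SE 0.28, limma adjusted p = 0.989), and between -0.96 and -0.29 with single arrays left out. None of these passed the threshold. Without the SK-N-MC siRNA 2 array, the SK-N-MC difference was -0.44.

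The SK-N-MC siRNA 2 array was also the SK-N-MC array with the least interferon-stimulated signal, at the sums given above, and the part of this in the NFKBIA value was not tested. Between siRNA 2 and siRNA 3 in both lines, NFKBIA differed by -0.66 (SE 0.24), with an unadjusted p of 0.0249 and a limma adjusted p of 0.710. The difference had the same sign in both lines and did not pass the threshold. Leaving out siRNA 2 of A673 gave -1.12, and leaving out siRNA 2 of SK-N-MC gave -0.19.

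TNFAIP3 encodes A20, a ubiquitin-editing enzyme that shuts down signalling to IKK. In A673 it lay at 2.0 with siRNA 2 and 2.16 with siRNA 3, against 1.79 in the control array, all close to the olfactory receptor yardstick. In SK-N-MC it lay at 2.29 with siRNA 2 and 2.30 with siRNA 3, against 3.04 in the control array. The SK-N-MC control array thus stood alone as the high one, and the siRNA arrays of that line nearly coincided. The SK-N-MC response was -0.74 (SE 0.17), with an unadjusted p of 0.0034 and a limma adjusted p of 0.681. The A673 response was 0.29 (SE 0.17, limma adjusted p = 1.00). Neither passed the threshold, and the SK-N-MC value rests on 1 control array.

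The chemokines CXCL8, CXCL1 and CXCL2, which attract neutrophils, and CCL2, which attracts monocytes, were dim in both lines. CXCL8 lay at 1.70, 1.64 and 1.64 in A673 with siRNA 2, siRNA 3 and control siRNA, and at 1.60, 1.39 and 1.32 in SK-N-MC in the same order. CXCL1 lay at 2.02, 1.90 and 1.92 in A673 and at 2.55, 2.08 and 2.17 in SK-N-MC, with the SK-N-MC siRNA 2 array highest. CXCL2 lay between 1.31 and 1.58 in all 6 arrays and CCL2 between 1.22 and 1.67. Responses of these 4 genes ranged from 0.04 to 0.24 in A673 and from -0.18 to 0.17 in SK-N-MC, and none passed the threshold. CXCL1 and CXCL2 have near-identical sequences, so their signals may not be separate. CXCL1 differed by 0.29 (SE 0.15) between siRNA 2 and siRNA 3, with a limma adjusted p of 0.794. Leaving out siRNA 2 of SK-N-MC, this was 0.14.

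IL6 and LIF encode cytokines that signal through the shared receptor chain gp130. IL6 lay at 0.99, 1.08 and 1.11 in A673 with siRNA 2, siRNA 3 and control siRNA, and at 1.08, 1.18 and 1.28 in SK-N-MC in the same order. It was lower than its control array in all 4 siRNA arrays by up to -0.20, at levels below the olfactory receptor yardstick. LIF lay at 1.43, 1.37 and 1.68 in A673 and at 1.47, 1.63 and 1.28 in SK-N-MC, so the siRNA arrays were below control in A673 and above it in SK-N-MC. The LIF responses were -0.28 (SE 0.17) in A673 and 0.27 (SE 0.17) in SK-N-MC, neither past the threshold.

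PTGS2 encodes cyclooxygenase-2, the inducible enzyme of prostaglandin synthesis. It lay at 2.41 with siRNA 2 and 2.36 with siRNA 3 in A673, against 1.86 in the control array. In SK-N-MC it lay at 1.70 and 1.60, against 1.43 in the control array. The A673 siRNA arrays were the highest of the 6, and each siRNA array lay above its control array. The response was 0.52 (SE 0.16) in A673, with an unadjusted p of 0.0152 and a limma adjusted p of 1.00. In SK-N-MC it was 0.22 (SE 0.16, limma adjusted p = 0.993), and across lines 0.37 (SE 0.12, limma adjusted p = 0.989). The lines did not overlap, and A673 averaged 2.21 ± 0.30 beside 1.58 ± 0.13 for SK-N-MC (SD, n = 3 each). Only the A673 siRNA arrays exceeded the olfactory receptor yardstick.

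Counted together, limma called 0 of the 10 genes in either direction within A673, where 0.0% of all genes were called, and 0 within SK-N-MC, where 0.00543% were called. It also called 0 for the difference of the responses, across both lines and between the siRNAs, where 0.0% of all genes were called in each. STEAP1, the silenced gene, was itself not called within either line. The counts within lines thus do not show that the 10 genes failed to respond. At an unadjusted p under 0.05 there were 1 of the 10 in A673 (PTGS2), 2 in SK-N-MC (TNFAIP3 and NFKBIA), 1 for the difference of the responses (TNFAIP3), 1 across lines (PTGS2) and 1 between the siRNAs (NFKBIA). Of all genes, 3.35%, 5.12%, 3.86%, 4.63% and 6.67% had such a p in these comparisons, in the same order. The median response over the 10 genes was 0.05 in A673 and 0.12 in SK-N-MC, beside medians that round to 0.00 over all genes. In both siRNA arrays of A673, 3 of the 10 lay below control and 5 above it, beside 33.1% and 32.3% of all genes. In both of SK-N-MC, 4 lay below and 4 above, beside 32.7% and 31.4%. NFKBIA and IL6 lay below control in all 4 siRNA arrays, 2 of 10 genes beside 11.2% of all genes. CXCL8, CXCL2 and PTGS2 lay above it in all 4, which is 3 of 10 beside 10.6%.

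**Figure D2:**
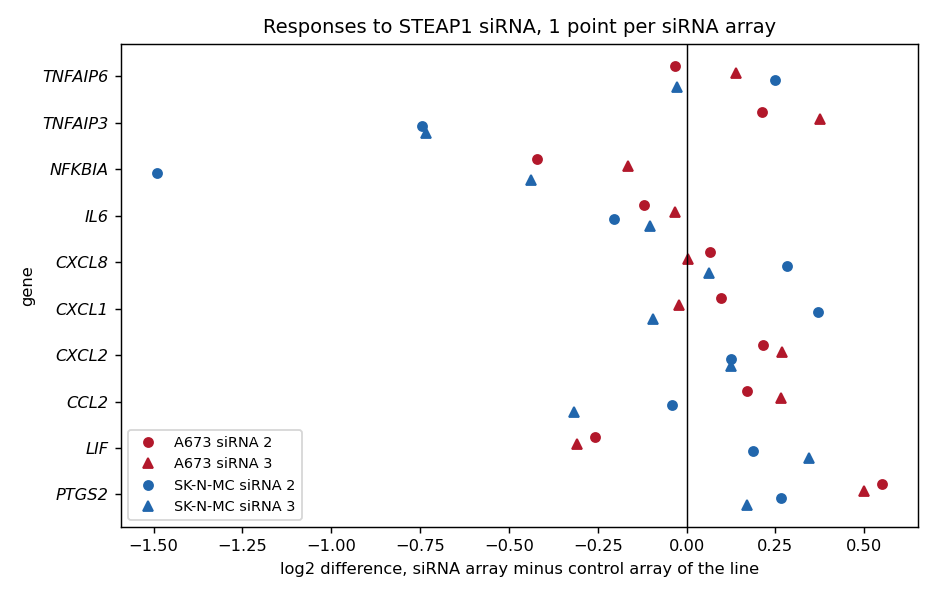
Log2 difference from the control array of the same line (x axis) for the 10 genes (y axis), 1 point per siRNA array, A673 in red and SK-N-MC in blue. The widest negative values are those of NFKBIA in SK-N-MC (-1.49 and -0.44) and TNFAIP3 in SK-N-MC (-0.74 and -0.73), and the widest positive ones those of PTGS2 in A673 (0.55 and 0.50).

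Between the lines, the 3 A673 arrays lay wholly above the 3 SK-N-MC arrays for TNFAIP6, CXCL8 and PTGS2, where 19.4% of all genes did so. They lay wholly below for TNFAIP3 and CXCL1, where 18.5% did so. Both counts belong to the contrast that chose the genes and are given as a description. The remaining 5 genes overlapped between the lines. CXCL8 lay below the olfactory receptor yardstick in every array, and PTGS2 exceeded it only in the A673 siRNA arrays.

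Other genes of the pathway were taken from 10 lists, chosen with earlier results of these data known, of which 126 genes were measured. Between the lines, 14 of the 126 were higher in A673 and 17 lower (limma adjusted p under 0.05), together 24.6%, beside 24.8% of all 18417 genes (13.5% higher and 11.4% lower). With values below a log2 of 3 set to 3, a check added after the values were seen, 12 of these 31 genes passed the threshold, and 5 had every value below 3. In 7 of the 31, at least 1 array did not exceed the olfactory receptor yardstick, so the size of their difference depends on how dim values are treated. These 7 are NFKBIZ, CD40, CD44, PTGER4, AKR1C3, PLA2G4A and VCAN. Setting values below 3 to 3 also shrank the differences of some genes that exceeded the yardstick in every array. Among these, NFKB1, RELB, TNFSF13B, TNFRSF11A, ICAM1 and CSF1 then did not pass, while LTBR did. TNIP1, MYD88, IRAK1, TNFRSF12A, IL1RAP, PTGER3 and PIAS3 kept the same difference in this check and also did not pass. Not passing it therefore does not mark a gene as dim. In the 5 other comparisons limma called 0 of the 126.

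Of the 5 NF-kB subunits, 2 were lower in A673 than in SK-N-MC. NFKB1, the precursor of p50, differed by -1.04 (SE 0.22, limma adjusted p = 0.0090), and RELB, the subunit of the non-canonical pathway, by -0.38 (SE 0.10). With values below 3 set to 3, these differences were -0.85 and -0.17, and neither passed the threshold. RELA, which encodes p65, lay between 5.56 and 6.15 in the 6 arrays. NFKB2, the precursor of p52, lay at 2.92 with siRNA 2 and 3.10 with siRNA 3 in SK-N-MC, against 4.03 in the control array. Its response there was -1.02 (SE 0.20), with an unadjusted p of 0.0017 and a limma adjusted p of 0.576, while in A673 it was -0.03 (SE 0.20). NFKB1 followed at -0.56 (SE 0.36) in SK-N-MC and -0.60 (SE 0.36) in A673, where REL stood at 0.38 (SE 0.18).

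In both SK-N-MC siRNA arrays, 4 of the 5 subunits lay below the control array, beside 32.7% of all genes. With the siRNA 3 array alone, 4 of 5 lay below, beside 50.1% of all genes, and with the siRNA 2 array alone 5 of 5, beside 50.7%. These counts were added after the data were seen. In A673, 3 of 5 lay below in both siRNA arrays, beside 33.1%. The medians of the subunits were -0.09 in A673 and -0.45 in SK-N-MC. Below control in both SK-N-MC siRNA arrays were also 4 of 5 Ewing tumor markers and 11 of 16 IKK kinases and adaptors. Of the upstream receptors, 2 of 15 were. All 19 interferon-stimulated genes also lay below control in both SK-N-MC siRNA arrays, with a median of -2.17. Their part in the SK-N-MC values of the NF-kB genes was not tested.

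Of the 11 IkB proteins and feedback genes, NFKBIZ, a nuclear IkB protein, was higher in A673 (1.12, SE 0.13) and TNIP1, an A20-binding protein, lower (-0.48, SE 0.15), both past the threshold. NFKBIZ exceeded the yardstick in 1 of the 3 SK-N-MC arrays, and with values below 3 set to 3 its difference was 0.09 and did not pass. TNIP1 kept its difference in that check and did not pass either. In both A673 siRNA arrays 4 of the 11 lay below control and 6 above it, beside 33.1% and 32.3% of all genes. In both SK-N-MC siRNA arrays 7 of the 11 lay below and 3 above, beside 32.7% and 31.4%. BCL3, a nuclear partner of p50 and p52, stood at -0.31 (SE 0.16) in A673 and -0.45 (SE 0.16) in SK-N-MC. ZFP36, an RNA-binding protein that destabilises cytokine mRNA, stood at 0.41 in both lines (SE 0.16 each) and lay above control in all 4 siRNA arrays. NFKBIE stood at 0.41 (SE 0.26) in A673.

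**Figure D3:**
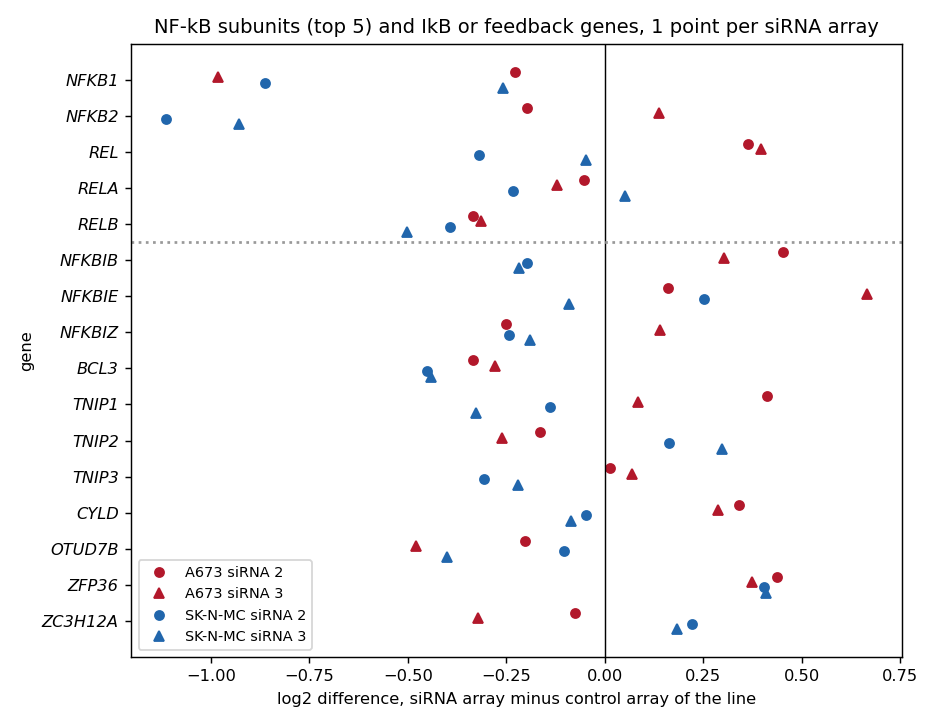
Log2 difference from the control array of the same line (x axis) for 5 NF-kB subunits (above the dotted line) and 11 IkB or feedback genes (y axis), 1 point per siRNA array, A673 in red and SK-N-MC in blue. NFKB2 lies at -1.11 and -0.93 in SK-N-MC, and ZFP36 lies to the right of 0 in all 4 siRNA arrays.

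Among 16 IKK kinases and adaptors, 3 were higher in A673 and 4 lower. BIRC2, a ubiquitin ligase of the receptor complex, was 2.79-fold higher in A673 (log2 1.48, SE 0.15), and TRAF6 and IRAK1 of the Toll-like receptor pathway were also higher. TAB2 (-1.07, SE 0.10), MAP3K7 (-0.83, SE 0.12), MYD88 and MAP3K14 were lower, TAB2 and MAP3K7 being partners in the TAK1 kinase complex. With values below 3 set to 3, BIRC2, TAB2, MAP3K7 and TRAF6 passed the threshold, while MYD88 and IRAK1 did not. MAP3K14 lay below a log2 of 3 in every array. The widest responses were those of IKBKG (-0.77, SE 0.24) and TBK1 (-0.23, SE 0.29) in A673, and of TRAF3 (-0.59, SE 0.35) and BIRC2 (-0.55, SE 0.19) in SK-N-MC, none past the threshold.

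Of 11 upstream cytokines, TNFSF13B was lower in A673 (-0.81, SE 0.17) and none was higher. With values below 3 set to 3, the TNFSF13B difference was -0.29 and did not pass the threshold. TNF, the classical activator, lay between 1.51 and 2.02 in the 6 arrays. IL1B, the other classical activator, lay at 2.0 and 1.68 after siRNA 2 and 3 in SK-N-MC, against 2.5 in the control array (response -0.66, SE 0.21). TNFSF11 (-0.60, SE 0.17) and IL1A (-0.40, SE 0.17) had the widest responses in A673, and TNFSF13B (-0.30, SE 0.27) followed IL1B in SK-N-MC. TNF and IL1A lay below the olfactory receptor yardstick in all 6 arrays. So did TNFSF11 in every array but the A673 control, and IL1B in every array but the SK-N-MC control. No cytokine response passed the threshold.

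Of 15 upstream receptors, LTBR (1.02, SE 0.13), CD40 (0.80, SE 0.20), TNFRSF12A (0.68, SE 0.14) and IL1RAP were higher in A673, and TNFRSF11A was lower. CD40 did not exceed a log2 of 3 in any array. With values below 3 set to 3, the LTBR difference was 0.78 and passed, and that of TNFRSF11A was -0.44 and did not. The TNF receptor TNFRSF1A lay between 5.47 and 5.64 in the 6 arrays, and the interleukin-1 receptor IL1R1 between 1.04 and 1.29. Responses reached -0.42 (SE 0.21) for IL17RC and -0.26 (SE 0.21) for TNFRSF12A in A673, and 0.56 (SE 0.18) for IL1RAP and -0.35 (SE 0.31) for CD40 in SK-N-MC. None of these responses passed the threshold.

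The receptors of the mediators' products were also measured, 12 in number with OSMR, whose ligand oncostatin M is not among those products. OSMR, which pairs with gp130 as the oncostatin M receptor, was 3.32-fold higher in A673 (log2 1.73, SE 0.19), and CD44, the hyaluronan receptor, was higher by 0.75 (SE 0.11). CD44 exceeded the yardstick in 0 of the 3 SK-N-MC arrays and lay below a log2 of 3 in all 6. The prostaglandin receptors PTGER3 (-0.85, SE 0.14) and PTGER4 were lower in A673. OSMR lay at 3.48 with siRNA 2 and 3.95 with siRNA 3 in SK-N-MC, against 4.75 in the control array (response -1.03, SE 0.23), with an unadjusted p of 0.0034 and a limma adjusted p of 0.681. In A673 the OSMR response was -0.29 (SE 0.23) and that of PTGER3 0.22 (SE 0.16), and in SK-N-MC IL6ST, which encodes gp130, stood at -0.35 (SE 0.33). LIFR, the LIF receptor, lay between 5.57 and 5.87, while the interleukin-8 receptors CXCR1 and CXCR2 lay between 0.93 and 1.29.

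Of the 9 STAT3 pathway genes, through which IL6 and LIF signal, STAT3 was lower in A673 (-1.21, SE 0.13) and PIAS3, an inhibitor of STAT3, higher (0.49, SE 0.15). The STAT3 response was -0.49 (SE 0.18) in SK-N-MC, where PIAS3 stood at -0.45 (SE 0.21). In A673 BCL6 (0.64, SE 0.27) and SOCS3, the feedback inhibitor of gp130 signalling (0.60, SE 0.17), had the widest responses. No response in this list passed the threshold.

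Among 28 other inflammatory targets of NF-kB, 1 was higher in A673 and 4 were lower. CEBPB, a transcription factor of the acute-phase response, was higher by 1.16 (SE 0.12). CD83 (-1.68, SE 0.16), the adhesion molecule ICAM1 (-1.59, SE 0.22), the mitochondrial superoxide dismutase SOD2 and the growth factor CSF1 were lower. With values below 3 set to 3, the differences of ICAM1 and CSF1 were -0.92 and -0.27 and did not pass, while CEBPB, CD83 and SOD2 passed. ICAM1 lay at 2.37 and 2.56 in the A673 siRNA arrays, against 2.05 in the A673 control array, while SK-N-MC had 3.47 and 4.02 with siRNA, against 4.29 in its control array. The ICAM1 responses were 0.41 (SE 0.25) in A673 and -0.54 (SE 0.25) in SK-N-MC, neither past the threshold. VCAM1 stood at 0.41 (SE 0.18) in A673 and IER3 at -0.45 (SE 0.18) in SK-N-MC.

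Genes of prostaglandin synthesis and of the hyaluronan matrix were set beside PTGS2 and TNFAIP6. Of 10 prostaglandin genes, AKR1C3, which reduces prostaglandins, was higher in A673 by 6.79 (SE 0.17), with near-identical family members that make its value uncertain. PLA2G4A, the phospholipase that releases arachidonic acid for PTGS2, was 13.8-fold higher (log2 3.79, SE 0.13), at 5.81 and 6.09 in A673 siRNA arrays and 5.89 in the A673 control array. In SK-N-MC it lay at 2.31 and 2.24, against 1.87 in the control array, which lies below the yardstick. With values below 3 set to 3, the line difference was 5.70 for AKR1C3 and 2.93 for PLA2G4A, and both passed the threshold. The widest responses were 0.28 for PTGES and PTGDS in A673 (SE 0.21 each), and 0.52 (SE 0.21) for PTGDS and 0.42 (SE 0.21) for TBXAS1 in SK-N-MC.

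Of 9 hyaluronan matrix partners of TNFAIP6, VCAN, the proteoglycan versican, was lower in A673 (-0.79, SE 0.12) and none was higher. VCAN lay below a log2 of 3 in all 6 arrays. The hyaluronan synthase HAS2 lay between 1.03 and 1.59 in the 6 arrays. Responses in this list were at most 0.15 (SE 0.17) for HAS3 and 0.09 (SE 0.25) for AMBP in A673, and -0.41 (SE 0.16) for VCAN and 0.33 (SE 0.16) for ITIH3 in SK-N-MC.

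**Figure D4:**
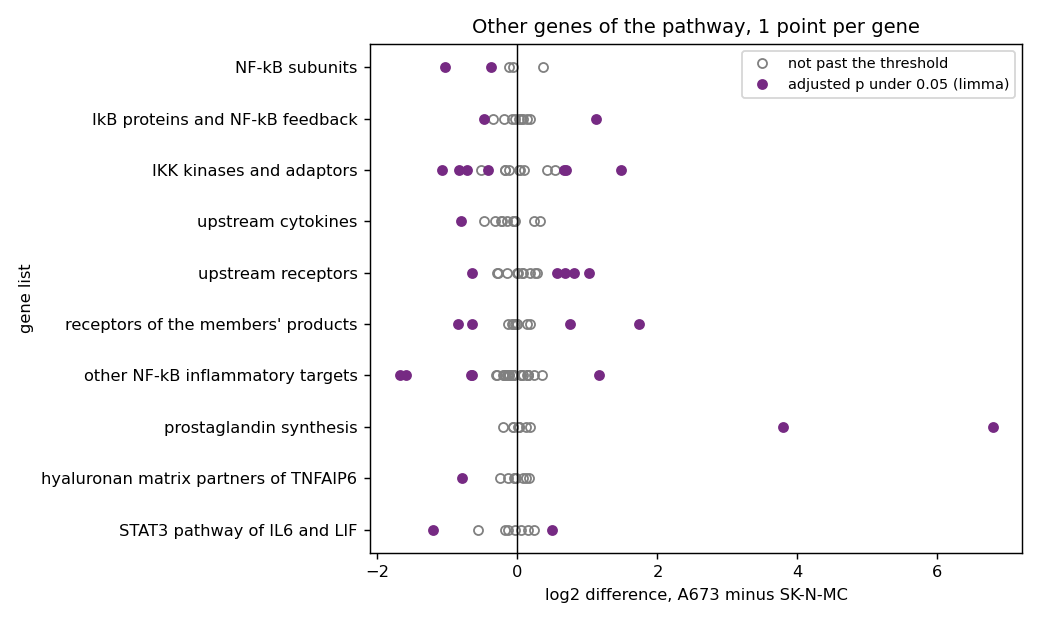
Log2 difference A673 minus SK-N-MC (x axis) for 126 genes of 10 pathway lists (y axis), 1 point per gene, filled where the limma adjusted p was under 0.05. Called genes lie on both sides of 0 in 6 of the lists, and AKR1C3 (6.79) and PLA2G4A (3.79) stand farthest to the right.

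The genes with the most similar pattern over the 6 arrays were found by the distance between centred log2 profiles, as a description over arrays of only 2 lines. For TNFAIP6 they were H1-5 (distance 0.40), DCC (0.49) and CES1 (0.53), all of them high in A673. For NFKBIA they were B2M (0.23), CCDC88C (0.29) and PSME1 (0.30). B2M, which encodes the light chain of MHC class I, lay at 7.85 with siRNA 2 and 8.64 with siRNA 3 in SK-N-MC, against 9.13 in the control array. For TNFAIP3 they were MYL11 (0.18), COL21A1 (0.18) and GBP4 (0.20), each highest in the SK-N-MC control array. GBP4, an interferon-inducible guanylate-binding protein, lay at 1.73 in both SK-N-MC siRNA arrays, against 2.52 in the control array.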

How the data were processed

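The authors deposited 1 intensity per probe set and array on a linear scale, summarised by RMA. Per the submitters' processing notes the software was Affymetrix Expression Console 1.1. How RMA values became linear is not stated in those notes, and no detection calls were used. Of 33297 probe sets, 19460 carry 1 gene symbol in the platform annotation. Symbols were updated by gene identifier through RefSeq (19429 matched), and the probe set with the highest mean was kept, giving 18417 genes. Log2 was taken and limma 3.58.1 in R 4.3.3 (lmFit, eBayes, two-sided, Benjamini-Hochberg over all genes, threshold 0.05) was fitted across all genes. Responses within lines and their difference came from 4 group means (2 residual degrees of freedom), responses across lines and the line difference from line and silencing terms (3), and the siRNA difference from a line term and a term per siRNA (2). The fits were tested on simulated data.

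Naming rule: the 10 genes, STEAP1, list members called between lines (up to 3 per list with the largest difference) and the 2 widest responses per list and line. Further genes named are called members, pathway ligands or receptors given as levels, and markers, chosen after their values were seen. The 3 nearest profiles were named for genes with a range of at least 1.0. The members and lists were chosen with earlier results of these data known. Of the listed genes, 11 were not analysed here. Alternatives were a second quantile normalization, median centring, a filter keeping genes whose log2 averaged 4 or more, values below 3 set to 3, the mean of all probe sets of a gene, the siRNA number as a block, and leaving out each array.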

Additional observations from a re-analysis of the deposited data

Results flagged for a closer look

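For 3 of the 10 genes, both siRNA arrays of one line lay above their control array and both of the other line below it. The difference of the responses, A673 minus SK-N-MC, was 1.03 (SE 0.24) for TNFAIP3, with responses of 0.21 and 0.37 in A673 against -0.74 and -0.73 in SK-N-MC. It was 0.40 (SE 0.26) for CCL2, with 0.17 and 0.26 in A673 against -0.04 and -0.32 in SK-N-MC. It was -0.55 (SE 0.24) for LIF, with -0.26 and -0.31 in A673 against 0.19 and 0.34 in SK-N-MC. The direct test of the difference passed the threshold for none of them (limma adjusted p = 1.00 each, unadjusted p of 0.0036, 0.176 and 0.0555). CCL2 and LIF lay at or below the olfactory receptor yardstick in all 6 arrays, and TNFAIP3 near it in A673. Within a line both siRNA arrays share 1 control array, so a single control value can set the sign of both.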

How the results depend on the processing

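Each line had 1 control array, so the spread rests on the siRNA arrays, and 5 of the 10 genes never rose above the olfactory receptor yardstick. Of 376 comparisons of a reported difference with an alternative, 364 kept their direction and side of the threshold or moved by less than the spread between arrays. Setting values below 3 to 3 gave 123 calls within SK-N-MC, 84 within A673, 177 for the difference of the responses and 1867 between lines, where the unchanged values gave 1, 0, 0 and 4575. It called 1 of the 10 genes within SK-N-MC and 1 for the difference, TNFAIP3 at -0.036 and 0.036, because arrays set to 3 have almost no spread. Genes with every value at 3 have no result there. Without single arrays the calls were 0 to 61 within SK-N-MC, 0 to 26 for the difference of the responses and 0 to 1 across lines. Within SK-N-MC there were 8 without its siRNA 2 array, 61 without its siRNA 3 array and 0 without either A673 siRNA array. The 26 arose on leaving out siRNA 3 of SK-N-MC, and the 1 on leaving out the A673 control. None of the 10 genes was among these calls. The cause of these changes was not tested. Where a group keeps 1 array, it is assumed to vary like the other groups. Differences of TNFAIP6 and CXCL1 changed sign without single arrays: TNFAIP6 ranged from -0.032 to 0.14 in A673 and from -0.027 to 0.25 in SK-N-MC, and CXCL1 from -0.022 to 0.097 in A673 and from -0.094 to 0.37 in SK-N-MC. The line difference of TNFAIP3 was -0.22 and that of LIF -0.15 without either control array, beside -0.56 and 0.03. With the replicate block, the siRNA number as a term, 4720 genes were called between lines and 0 across lines, and none of the 10 across lines. Deviations of same-numbered arrays correlated at 0.0663 across all genes and at 0.193 across the 7413 genes whose log2 averaged 4 or more. With only 2 pairs, and a number that names the siRNA, the number was not taken to pair the arrays.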
